A study of Mus musculus with 18 samples.

Results

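The genes described here are Myc, which encodes the transcription factor MYC, and 37 genes of the growth programme tied to it, nearly all of which make ribosomes. The 38 members were taken by symbol from the gene table of the series, and all 38 were found among its 24072 genes. All 38 also passed the filter on low values, which left 12839 genes in the tests. Both RNA and open chromatin (by ATAC-seq) were sequenced for pro-B cells of C57BL6/J mice, the earliest cells committed to making B lymphocytes, with 3 libraries per genotype and assay. The genotypes are Ebf1 knock out (Ebf1-KO), Pax5 knock out (Pax5-KO) and wild type (WT), and each knockout targets a transcription factor of early B cell development. The cells of all 3 genotypes came from fetal liver and were expanded on OP9 stroma, a bone marrow stromal line, with KIT ligand, FLT3 ligand and IL-7. The age of the fetuses, the kind of allele and whether the numbered libraries came from separate fetuses are given by no label or protocol used here, so a p-value measures the spread between these libraries only.

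MYC pairs with MAX and binds DNA at E-boxes, of which the letters CACGTG are the best known, and it raises the transcription of genes for cell growth. A ribosome is built in the nucleolus, where RNA polymerase I copies the ribosomal DNA into a long precursor. Small nucleolar ribonucleoproteins (snoRNPs) then modify and help to cut that precursor, and assembly factors fold it with ribosomal proteins into the small (40S) and the large (60S) subunit. In pro-B cells growing on IL-7 this programme accompanies rapid division, and EBF1 and PAX5 are the factors that switch the B lineage programme on. The comparisons ask how the members' RNA stood in cells labelled as a knockout of either factor.

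RNA values are reads over exons per 10 M mapped reads, called normalised reads below. Mapped reads were 27.3 to 89.1 M per RNA library, of which 47.0 to 71.4% lay in the gene table. Pax5 stood at 98.6 to 129 normalised reads in Pax5-KO against 1314 to 1629 in WT, and at 8.53 to 15.7 in Ebf1-KO. Ebf1 stood at 1345 to 1605 in Ebf1-KO, at 1329 to 1661 in Pax5-KO and at 3252 to 4454 in WT, so Ebf1-KO was not told from Pax5-KO by this gene, and the labels do not say which exons were deleted. Xist was at 41026 to 47861 in Ebf1-KO and at no more than 42.8 in Pax5-KO and WT, and 4 Y-linked genes reached at most 2.75 in Ebf1-KO, so sex and the Ebf1-KO genotype cannot be told apart.

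The median log2 change of all 12839 tested genes was 0.31 in Ebf1-KO over WT, 0.28 in Pax5-KO over WT and 0.05 in Ebf1-KO over Pax5-KO with the authors' scaling. With TMM scaling, which sets the bulk of genes level, it was 0.01, 0.04 and -0.00. Changes are therefore given as relative log2 changes, the log2 change of (value + 1) less the median of all tested genes in that comparison. A positive value means higher in the group named first. SEs and adjusted p-values come from limma (Benjamini-Hochberg over all tested genes, called below 0.05, two-sided) and belong to the change before that median is taken off. Ebf1-KO and Pax5-KO were compared with the same WT libraries, so the values of these comparisons are given side by side and not as independent evidence.

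Per kilobase of transcript, the members' median level was 229.8 normalised reads in Ebf1-KO, 302 in Pax5-KO and 232 in WT, against medians over all tested genes of 55.1, 53.4 and 42.5. Npm1, the gene of nucleophosmin, had the highest level per kilobase in all 3 genotypes, 21583 in Ebf1-KO, 25804 in Pax5-KO and 22304 in WT. The lowest was that of Polr1e in Ebf1-KO (41.7), of Rrp9 in Pax5-KO (48.1) and of Rrp9 in WT (33.5). Npm1 has processed pseudogenes that can share its reads, Nip7 was counted on a non-coding transcript of its locus, and the table's Ncl entry is 8241 bases long, so these levels are uncertain.

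Together the members took 1.29, 1.32 and 1.47% of exon reads in the Ebf1-KO libraries, then 1.65, 1.71 and 1.85% in Pax5-KO and 1.53, 1.67 and 1.70% in WT. Every Ebf1-KO library lay below every library of both other genotypes, and Pax5-KO overlapped WT. Ncl and Npm1 made up most of this sum. Without them the shares were 0.517, 0.564 and 0.626% in Ebf1-KO, then 0.748, 0.739 and 0.817% in Pax5-KO and 0.570, 0.685 and 0.687% in WT. In this sum Pax5-KO lay above WT and Ebf1-KO in every library, while Ebf1-KO overlapped WT. In bulk cultures fewer cells of a type and less RNA per cell cannot be told apart, and this holds for each result that follows.

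**Figure D1:**
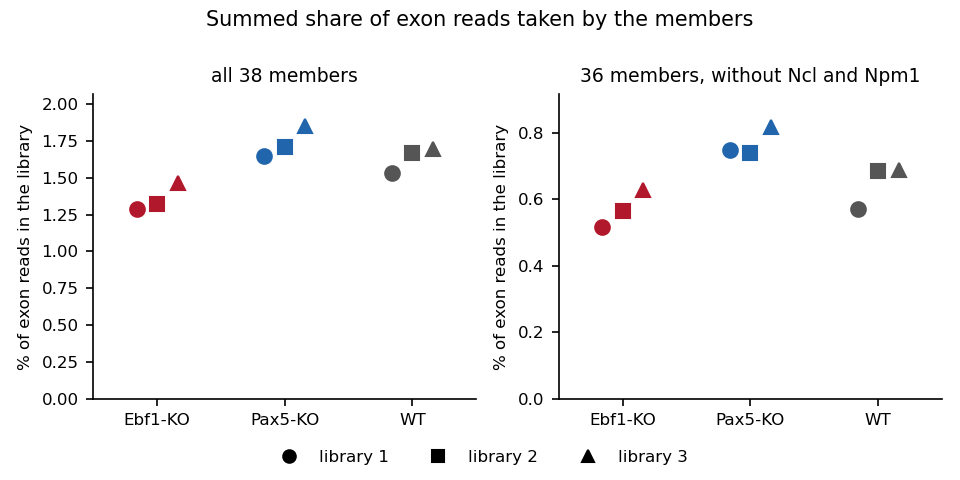
Share of exon reads taken by the 38 members (percent), with and without Ncl and Npm1, in each RNA library. Each point is 1 library, marked by its number. The 3 Ebf1-KO points lie at 1.29 to 1.47%, below all Pax5-KO (1.65 to 1.85%) and WT points (1.53 to 1.70%), and without Ncl and Npm1 the Pax5-KO points (0.739 to 0.817%) lie above the rest.

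The libraries also ordered the members by number. Library 3 was the highest of its genotype for 38 of 38 members in Ebf1-KO, 38 in Pax5-KO and 35 in WT, and WT library 1 was the lowest of the WT libraries for all 38. Over all tested genes library 3 was the highest for 59.6% in Ebf1-KO, 71.5% in Pax5-KO and 65.3% in WT. Libraries of equal number deviated together across genes, and the cause of that order was not tested. With the authors' scaling 34 of the 38 members were higher in Pax5-KO than in WT in all 3 pairs of equal number (89.5%, against 58.0% of all tested genes). Less the median of all tested genes, the members' median change was 0.25 in pair 1, -0.006 in pair 2 and 0.10 in pair 3. In pair 2, 19 of 38 members lay above the median of all genes, against 33 in pair 1 and 25 in pair 3. In Ebf1-KO over Pax5-KO 34 were lower in all 3 pairs (89.5%, against 27.8% of all tested genes). Less the median of all tested genes, the members' medians there were -0.48, -0.36 and -0.31 in pairs 1 to 3.

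**Figure D2:**
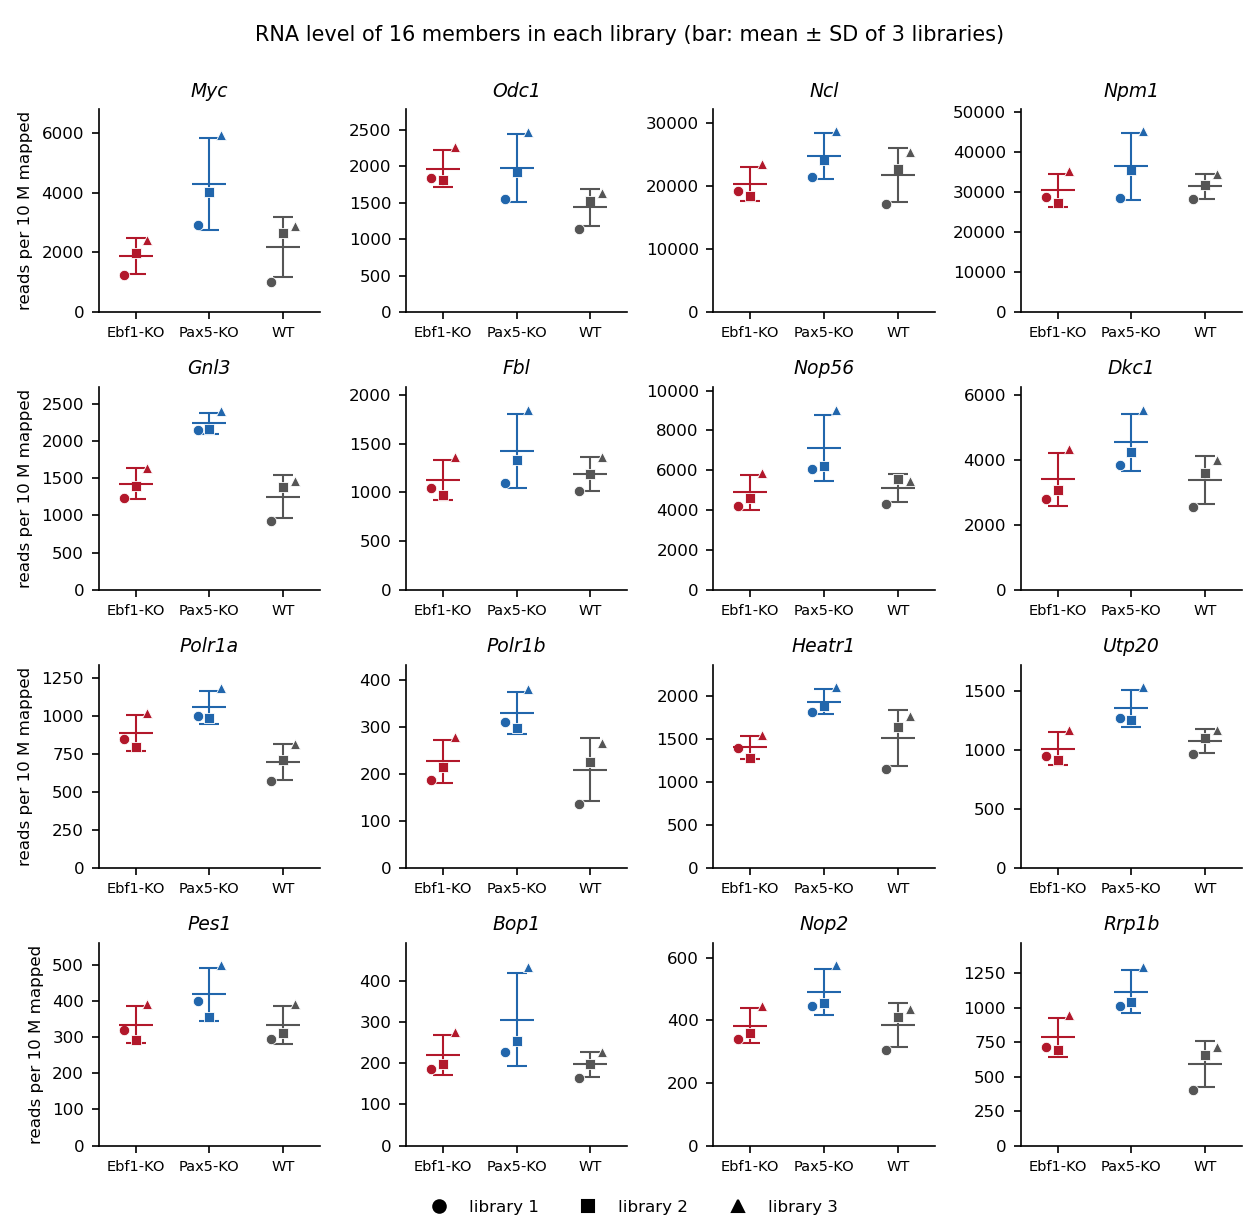
Normalised reads per 10 M mapped reads in each of the 9 RNA libraries for 16 members (linear axes from 0), with 1 point per library, marked by its number, and bars at the mean ± SD of 3 libraries. Myc, Gnl3 and Rrp1b stand higher in all 3 Pax5-KO libraries than in any WT library, and Ncl, Npm1 and Fbl overlap between the genotypes.

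An E-box of the letters CACGTG (the same on both strands) lay in 6 of the 36 promoter windows found for 32 members (16.7%), against 7.15% of all 32851 windows of the table. Each window runs from 250 bases before to 50 bases after a start site, with sequence and starts from RefSeq (GRCm38.p6). The 6 stretches are shown because the E-box is the site to which MYC binds, with the E-box in capitals, in the direction of the gene. No window was found for Dcaf13, Fbl, Npm1, Bop1, Rrs1 and Myc.
Nop2 (chr6:125131813-125131838): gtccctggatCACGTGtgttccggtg
Utp20 (chr10:88826765-88826787): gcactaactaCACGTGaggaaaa
Pes1 (chr11:3963967-3963992): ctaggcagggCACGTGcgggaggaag
Mybbp1a (chr11:72441357-72441376): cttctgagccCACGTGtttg
Tsr1 (chr11:74898094-74898119): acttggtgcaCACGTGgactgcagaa
Wdr43 (chr17:71616222-71616247): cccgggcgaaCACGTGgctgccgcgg
The first base of the E-box stands 60 bases before the start site in Nop2. Counting the start site as the first base, it is base 38, 3, 41, 25 and 18 in Utp20, Pes1, Mybbp1a, Tsr1 and Wdr43. Utp20 is on the minus strand and the other 5 are on the plus strand. Of the 6 genes, Tsr1 was called higher in Pax5-KO over WT and Utp20 lower in Ebf1-KO over Pax5-KO, as set out below. The EBF1 palindrome, a strong form of the site that EBF1 binds (TCCC and GGGA with any 2 bases between them), was in none of the 36 windows and in 0.904% of all windows.

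In Pax5-KO over WT 14 of the 38 members rose and none fell, against 34.7% of all tested genes called higher and 11.9% called lower. The 14 were Myc, Gnl3, Nolc1, all 4 RNA polymerase I genes (Polr1a, Polr1b, Polr1c and Polr1e), Nop14, Noc4l, Tsr1, Bop1, Wdr12, Nop16 and Rrp1b. This fit leaves out the replicate number, and its share called higher, 36.8%, was near that of all genes. With the replicate number as a block 30 were higher (78.9%, against 47.6% of all tested genes, with 15.3% lower). The members' median relative log2 change was 0.17, with 28 members above the median of all genes and 10 below it. With TMM scaling 10 members were called higher and none lower (27 and 23.0% of all tested genes). With the block on TMM scaling 17 were higher and none lower (31 and 26.6%). Quantile normalization called 9 higher (23.5% of all tested genes, with 26.9% lower), edgeR 9 (27.1 and 22.7%) and DESeq2 7 (26.1 and 24.1%). All 3 Pax5-KO libraries exceeded all 3 WT libraries for 19 members (50.0%, against 40.3% of all tested genes). Polr1a, Gnl3, Rrp1b, Nop14 and Wdr12 were called under all 19 alternatives, and the share of all tested genes called under all 19 was not counted. The count was 9 without Pax5-KO 2, 6 without Pax5-KO 3 and 5 without WT 1.

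In Ebf1-KO over WT 3 members rose, Odc1, Polr1c and Nop14, and none fell, against 40.8% of all tested genes called higher and 14.4% called lower. The share of 7.89% was below that of all genes, and the members' median relative log2 change was -0.24, with 31 members below the median of all genes and 7 above it. The calls turned with the scaling, since with TMM none was higher and 16 were lower (30.9 and 26.8% of all tested genes). With the block 9 were higher and 1 was lower (51.0 and 17.4% of all tested genes), and with the block on TMM scaling 2 were higher and 20 lower (34.1 and 30.6%). Quantile normalization called none higher and 15 lower (28.5 and 30.5% of all tested genes), edgeR none and 16 (30.6 and 26.6%) and DESeq2 none and 17 (30.4 and 27.2%). All 3 Ebf1-KO libraries exceeded all 3 WT libraries for 3 members (7.89%, against 48.3% of all tested genes). In pairs of equal number 13 members were higher in all 3 pairs (34.2%, against 59.4%) and 1 was lower in all 3 (2.63%, against 21%). The count of higher members was 1 without Ebf1-KO 1, Ebf1-KO 3, Pax5-KO 2, WT 1 or WT 2, and 6 without WT 3.

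In the direct comparison of Ebf1-KO with Pax5-KO 5 members fell, Myc, Gnl3, Nop56, Utp20 and Heatr1, and none rose, against 13.3% of all tested genes called lower and 17.5% called higher. Without the block the share called lower, 13.2%, was near that of all genes. With the block 25 were lower (65.8%, against 19% of all tested genes, with 24.8% higher). The members' median relative log2 change was -0.37, with 37 members below the median of all genes and only Polr1c above it. With TMM scaling 32 were lower and none higher (19.5 and 20.7% of all tested genes), and with the block on TMM scaling 34 were lower (23.9%, with 24.4% higher). Quantile normalization called 32 lower and none higher (19.5 and 21.7% of all tested genes), edgeR 30 and none (19.8 and 20.6%) and DESeq2 31 and none (19.7 and 21.9%). The members' median SE was 0.18 with the authors' scaling, 0.10 with TMM scaling and 0.074 with the block on TMM scaling. All 3 Ebf1-KO libraries lay below all 3 Pax5-KO libraries for 8 members (21.1%, against 17% of all tested genes). No member was called without Ebf1-KO 1, 1 without Pax5-KO 2 or Pax5-KO 3, 2 without Ebf1-KO 2 or WT 2, 8 without WT 1 and 9 without Ebf1-KO 3.

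Because the members are highly expressed, the medians were also set beside those of genes above a level, a choice made after the values were seen. Over the 1869 genes at or above the members' median level of 785.5 normalised reads, the median relative log2 change was -0.05 in Ebf1-KO over WT, -0.05 in Pax5-KO over WT and -0.01 in Ebf1-KO over Pax5-KO. That cut lies above the level of many members. Over the 8138 genes at or above the level of the lowest member (64.7), the medians were -0.002, 0.006 and -0.007 in the same order. The members' own medians were -0.24, 0.17 and -0.37, of which the 0.17 was 0.06 without WT 1, and the differences were not tested.

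**Figure D3:**
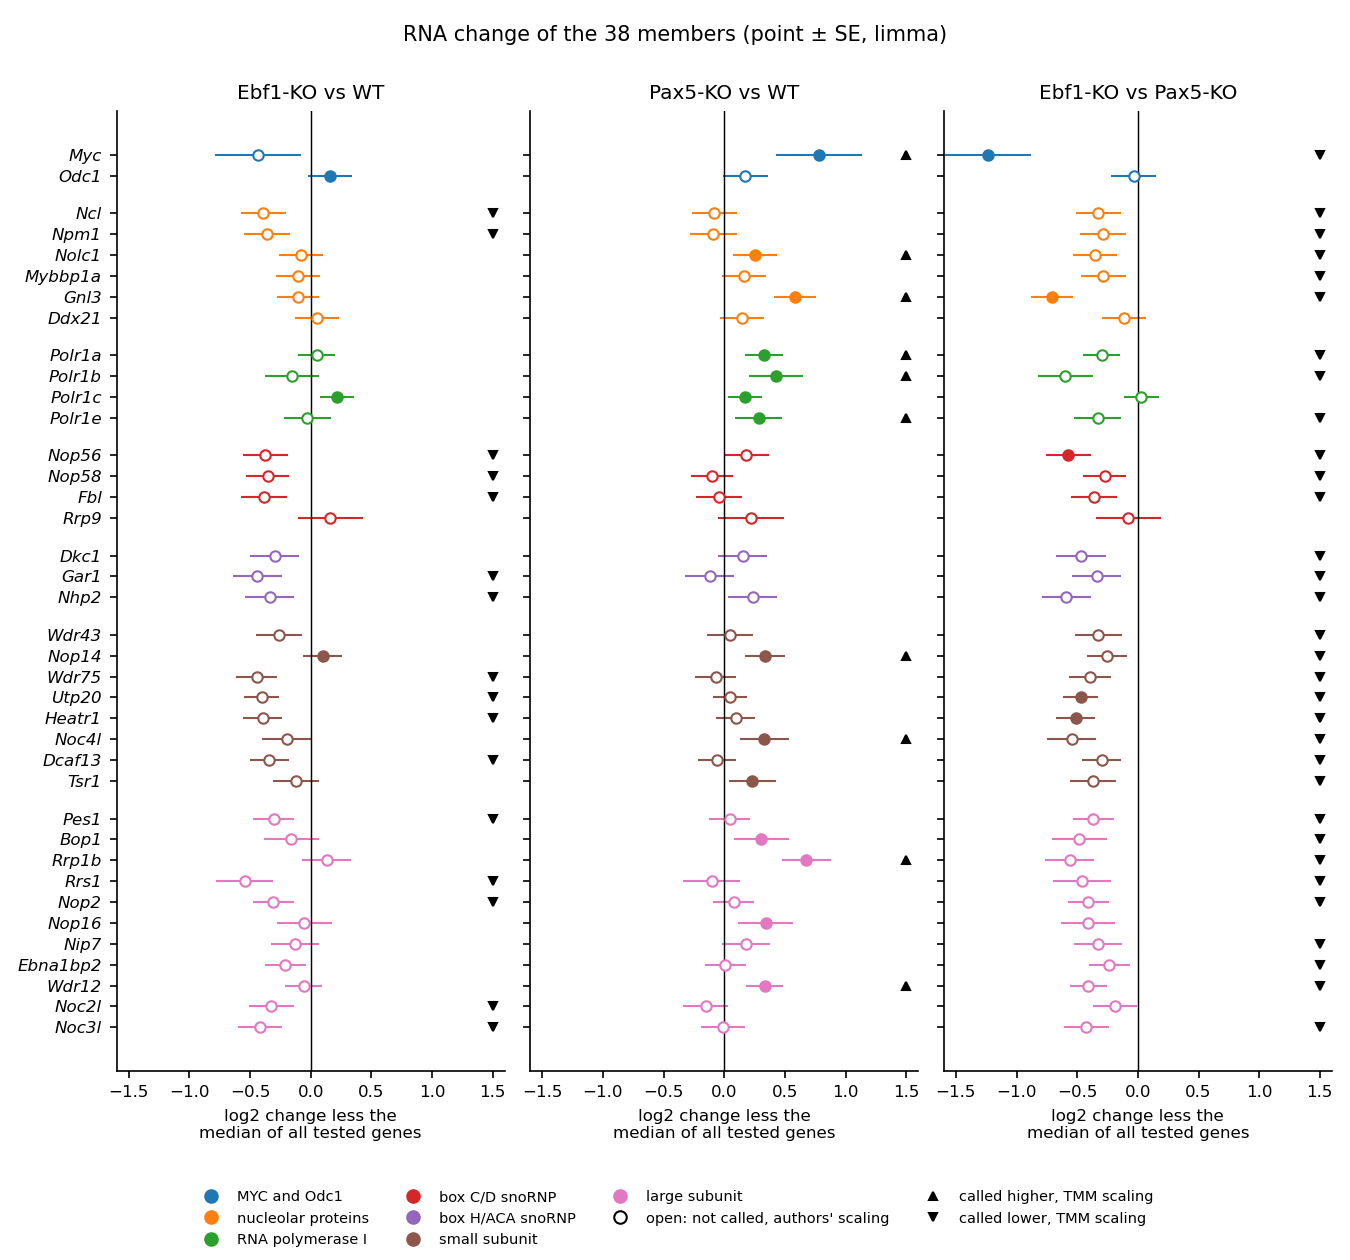
Relative log2 change (less the median of all tested genes) of each of the 38 members, ordered by role, in Ebf1-KO over WT, Pax5-KO over WT and Ebf1-KO over Pax5-KO. Points carry ± 1 SE, filled points were called with the authors' scaling and triangles at the right edge mark calls with TMM scaling. Most points lie below 0 in Ebf1-KO over WT (31 of 38), above 0 in Pax5-KO over WT (28) and below 0 in Ebf1-KO over Pax5-KO (37).

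**Figure D4:**
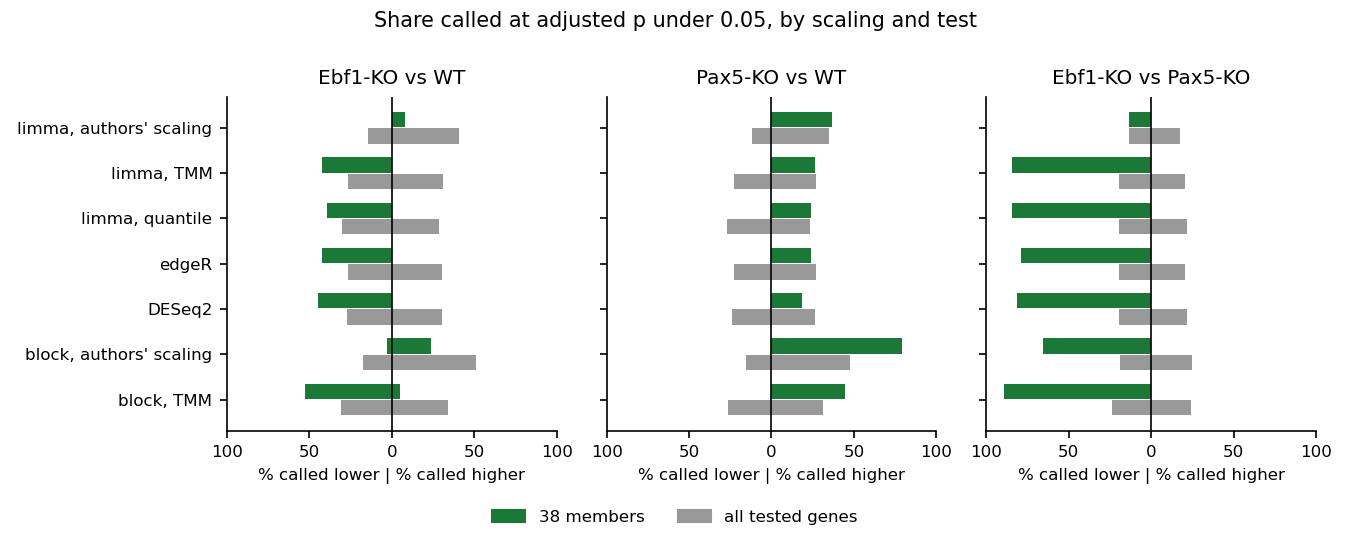
Percent of members and of all tested genes called higher or lower in each comparison, for 7 settings of scaling and test; bars left of 0 are shares called lower and bars right of 0 shares called higher. For Ebf1-KO over Pax5-KO the members called lower number 5 of 38 with the authors' scaling and 32 with TMM scaling, against 13.3 and 19.5% of all tested genes.

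Myc (chr15:61985341-61990361, plus strand, build mm10) had the largest difference between the knockouts of all members. Its normalised reads in libraries 1 to 3 were 1223, 1979 and 2424 in Ebf1-KO, then 2908, 4020.0 and 5935 in Pax5-KO and 1010.3, 2629 and 2875 in WT. Every Pax5-KO library exceeded every library of both other genotypes, while Ebf1-KO overlapped WT. The relative log2 change of Myc was 0.78 (SE 0.35, adjusted p = 0.0241) in Pax5-KO over WT and -1.23 (SE 0.35, adjusted p = 0.0178) in Ebf1-KO over Pax5-KO. For Ebf1-KO over WT it was -0.43 (SE 0.35, adjusted p = 0.778), and the gene was called lower there under 1 of 19 alternatives, the block on TMM scaling (adjusted p = 0.00626). The call in Pax5-KO over WT was lost with DESeq2, no filter on low values and a fit to the 2 genotypes alone (adjusted p = 0.0945, 0.0551 and 0.0600), and without Pax5-KO 2, Pax5-KO 3 or WT 1 (adjusted p = 0.0566, 0.0978 and 0.141). Between the knockouts, Ebf1-KO over Pax5-KO, it was lost without Ebf1-KO 1, Pax5-KO 2 or Pax5-KO 3 (adjusted p = 0.108, 0.0501 and 0.0660). The spread of Myc was also the widest of the members among libraries of Ebf1-KO and of WT, with coefficients of variation of 32.4 and 46.7%.

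Odc1 encodes ornithine decarboxylase, the rate-limiting enzyme of polyamine synthesis and a textbook MYC target. Its normalised reads were 1837, 1807 and 2264 in Ebf1-KO, then 1548, 1923 and 2468 in Pax5-KO and 1145, 1528 and 1637 in WT. All Ebf1-KO libraries exceeded WT, whereas Pax5-KO overlapped both. The relative log2 change was 0.16 (SE 0.18, adjusted p = 0.0427) in Ebf1-KO over WT, 0.17 (SE 0.18, adjusted p = 0.0547) in Pax5-KO over WT and -0.04 in Ebf1-KO over Pax5-KO. The call in Ebf1-KO over WT was lost with TMM scaling, quantile scaling, edgeR, DESeq2 and no filter on low values (adjusted p = 0.0691 to 0.228), and without Ebf1-KO 1, Ebf1-KO 2, Ebf1-KO 3, Pax5-KO 2, WT 1 or WT 2 (adjusted p = 0.0568 to 0.182). With the block Odc1 was also called higher in Pax5-KO over WT (adjusted p = 0.000726).

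Among the 6 nucleolar proteins, 2 were called higher in Pax5-KO over WT (34.7% of all tested genes), 1 was called lower in Ebf1-KO over Pax5-KO (13.3%) and none was called in Ebf1-KO over WT. With the block 4 were higher in Pax5-KO over WT (47.6% of all tested genes) and 1 in Ebf1-KO over WT (51.0%). In Ebf1-KO over Pax5-KO 2 were lower with the block (19%). With TMM scaling 2 were higher in Pax5-KO over WT (27%). In Ebf1-KO over WT none was higher and 2 were lower with TMM scaling (30.9 and 26.8%). Over Pax5-KO 5 were lower with TMM scaling (19.5%). Gnl3 (chr14:31012433-31019131, minus strand) encodes nucleostemin, a nucleolar GTPase of dividing and stem cells. It had normalised reads of 1234, 1400.1 and 1645 in Ebf1-KO, then 2145, 2163 and 2407 in Pax5-KO and 923, 1377 and 1464 in WT. The 3 Pax5-KO libraries lay above all 6 others, and Ebf1-KO overlapped WT. Its relative log2 change was 0.58 (SE 0.17, adjusted p = 0.000820) in Pax5-KO over WT and -0.70 (SE 0.17, adjusted p = 0.00791) in Ebf1-KO over Pax5-KO, against -0.10 in Ebf1-KO over WT. Leaving out Ebf1-KO 1 ended the call in Ebf1-KO over Pax5-KO (adjusted p = 0.0503).

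Nolc1 encodes a chaperone of snoRNPs in the nucleolus. It had normalised reads of 988, 1047 and 1409 in Ebf1-KO, then 1308, 1299 and 1621 in Pax5-KO and 750.1, 1053 and 1154 in WT, with Pax5-KO above WT in every library and Ebf1-KO overlapping both. On the relative log2 scale the change was 0.25 (SE 0.18, adjusted p = 0.0262) in Pax5-KO over WT, a call lost with edgeR and DESeq2 (adjusted p = 0.0506 and 0.0684), and without Pax5-KO 3 or WT 1 (adjusted p = 0.0888 and 0.122). In Ebf1-KO it was -0.08 over WT and -0.35 over Pax5-KO, the last called with the block (adjusted p = 0.0186).

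Nucleolin, from Ncl, binds the rRNA precursor, and nucleophosmin, from Npm1, chaperones histones and ribosomal particles; they are the members with the most reads. Ncl had normalised reads of 19151, 18424 and 23459 in Ebf1-KO, then 21427, 24086 and 28699.5 in Pax5-KO and 17066, 22655 and 25466 in WT. Npm1 had normalised reads of 28741, 27329 and 35160.1 in Ebf1-KO, then 28483, 35451 and 45138 in Pax5-KO and 28183, 31686 and 34411 in WT. For both, the libraries of all 3 genotypes overlapped and no comparison was called with the authors' scaling. Their relative log2 changes were -0.39 and -0.36 in Ebf1-KO over WT, -0.08 and -0.09 in Pax5-KO over WT and -0.33 and -0.29 in Ebf1-KO over Pax5-KO. With TMM scaling both were called lower in Ebf1-KO over WT (adjusted p = 0.00261 and 0.00767) and over Pax5-KO (adjusted p = 0.0105 and 0.0311).

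Of the 4 RNA polymerase I members all rose in Pax5-KO over WT (34.7% of all tested genes), with a median relative log2 change of 0.31, and 3 did so with TMM scaling. With quantile scaling or without WT 1 only Polr1a was called. In Ebf1-KO over WT 1 of 4 rose (40.8% of all tested genes), with a median of 0.01. Polr1a (chr6:71909053-71979360, plus strand) encodes the largest, catalytic subunit. Its normalised reads were 847, 799.5 and 1024 in Ebf1-KO, then 999, 988 and 1187 in Pax5-KO and 573, 708 and 814 in WT. Pax5-KO exceeded WT in all libraries and Ebf1-KO lay between them with overlap on either side. The relative log2 change of Polr1a was 0.33 (SE 0.16, adjusted p = 0.00506) in Pax5-KO over WT and 0.05 (SE 0.16, adjusted p = 0.0646) in Ebf1-KO over WT. With the block it was called higher in Ebf1-KO over WT (adjusted p = 0.00277), but not with the block on TMM scaling (adjusted p = 0.532). In Ebf1-KO over Pax5-KO it was called lower with the block on either scaling (adjusted p = 0.0374 and 0.00302).

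Polr1b, the second-largest subunit, had normalised reads of 188, 215 and 278 in Ebf1-KO, then 311, 299 and 382 in Pax5-KO and 135, 226 and 266 in WT. No Pax5-KO library overlapped Ebf1-KO or WT. Measured as a relative log2 change, it was 0.43 (SE 0.22, adjusted p = 0.0184) in Pax5-KO over WT, lost with quantile scaling (adjusted p = 0.0501), and without Pax5-KO 3 or WT 1 (adjusted p = 0.0593 and 0.0930). In Ebf1-KO over Pax5-KO it was -0.60 (SE 0.22, adjusted p = 0.0789), called with the block (adjusted p = 0.00187) and with TMM scaling (adjusted p = 0.00872).

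Polr1c, a subunit shared with RNA polymerase III, had normalised reads of 277, 261 and 309.5 in Ebf1-KO, then 259, 258 and 286 in Pax5-KO and 179, 185 and 226 in WT. Both knockouts exceeded WT in every library and overlapped each other, a pattern unlike that of Polr1b. The relative log2 change was 0.22 (SE 0.14, adjusted p = 0.00612) in Ebf1-KO over WT, 0.17 (SE 0.14, adjusted p = 0.0189) in Pax5-KO over WT and 0.03 in Ebf1-KO over Pax5-KO. The call in Ebf1-KO over WT was lost with TMM scaling, quantile scaling, edgeR and DESeq2 (adjusted p = 0.0535, 0.145, 0.0636 and 0.0662). For Pax5-KO over WT it was lost with TMM scaling, quantile scaling, edgeR and DESeq2 (adjusted p = 0.0874, 0.225, 0.102 and 0.157), and without WT 1 or WT 2 (adjusted p = 0.0573 and 0.0784).

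Polr1e encodes a further polymerase I subunit, and its normalised reads were 134, 142 and 184 in Ebf1-KO, then 162, 184 and 212 in Pax5-KO and 94.5, 141 and 147 in WT. The Pax5-KO libraries lay above WT, and Ebf1-KO overlapped both. Its relative log2 change in Pax5-KO over WT was 0.28 (SE 0.19, adjusted p = 0.0275), lost with quantile scaling, DESeq2 and a fit to the 2 genotypes alone (adjusted p = 0.129, 0.0633 and 0.0528), and without Pax5-KO 2, Pax5-KO 3 or WT 1 (adjusted p = 0.0661, 0.0829 and 0.129). For Ebf1-KO over WT it was -0.03, called higher with the block (adjusted p = 0.0456) and not with the block on TMM scaling (adjusted p = 0.839).

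The snoRNP members guide 2 kinds of rRNA modification, methylation of ribose by the box C/D class and pseudouridine formation by the box H/ACA class. Nop56, a core protein of the C/D class, had normalised reads of 4182, 4622 and 5867 in Ebf1-KO, then 6068, 6217 and 9004 in Pax5-KO and 4306, 5542 and 5471 in WT. Its Pax5-KO libraries exceeded all others, and Ebf1-KO overlapped WT. On the relative log2 scale the change was -0.57 (SE 0.18, adjusted p = 0.0406) in Ebf1-KO over Pax5-KO and 0.18 (SE 0.18, adjusted p = 0.0532) in Pax5-KO over WT, the last called with the block (adjusted p = 0.00122) and not with the block on TMM scaling (adjusted p = 0.0554). The call in Ebf1-KO over Pax5-KO was lost with no filter on low values and a fit to the 2 genotypes alone (adjusted p = 0.0731 to 0.0755), and without Ebf1-KO 1, Ebf1-KO 2, Pax5-KO 2, Pax5-KO 3 or WT 2 (adjusted p = 0.0529 to 0.184).

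Fbl encodes fibrillarin, the methyltransferase of the C/D class. It had normalised reads of 1048, 973 and 1364 in Ebf1-KO, then 1098, 1328 and 1847 in Pax5-KO and 1016, 1192 and 1359 in WT, with overlap between all 3 genotypes. Its relative log2 change was -0.39 in Ebf1-KO over WT, -0.04 in Pax5-KO over WT and -0.36 in Ebf1-KO over Pax5-KO, with no call. With the block it was called higher in Pax5-KO over WT (adjusted p = 0.0462) and lower in Ebf1-KO over Pax5-KO (adjusted p = 0.0146), and with the block on TMM scaling the call in Pax5-KO over WT was lost (adjusted p = 0.859). With TMM scaling it was called lower in Ebf1-KO over WT (adjusted p = 0.00899).

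Dkc1, the pseudouridine synthase of the H/ACA class, is the member on the X chromosome. Its normalised reads were 2802, 3073 and 4318 in Ebf1-KO, then 3838, 4226 and 5519 in Pax5-KO and 2548, 3578 and 3998 in WT. The genotypes overlapped, and the relative log2 change was -0.30 in Ebf1-KO over WT, 0.15 in Pax5-KO over WT and -0.47 in Ebf1-KO over Pax5-KO, with no call. With the block Dkc1 was higher in Pax5-KO over WT (adjusted p = 0.00100) and lower in Ebf1-KO over Pax5-KO (adjusted p = 0.00172), where sex differs too. The call in Pax5-KO over WT was lost with the block on TMM scaling (adjusted p = 0.0532).

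Of the 8 small subunit members 3 rose in Pax5-KO over WT (34.7% of all tested genes), 1 rose in Ebf1-KO over WT (40.8%) and 2 fell in Ebf1-KO over Pax5-KO (13.3%). With the block 6 rose in Pax5-KO over WT (47.6% of all tested genes) and 1 in Ebf1-KO over WT (51.0%). In Ebf1-KO over Pax5-KO 6 fell with the block (19%). With TMM scaling 2 rose in Pax5-KO over WT (27%). In Ebf1-KO over WT none rose and 4 fell with TMM scaling (30.9 and 26.8%), and all 8 fell in Ebf1-KO over Pax5-KO (19.5%). Nop14, a factor of 40S assembly, had normalised reads of 796, 753 and 983 in Ebf1-KO, then 869, 948 and 1102 in Pax5-KO and 511, 669.6 and 739 in WT. Both knockouts exceeded WT in every library. Measured as a relative log2 change, it was 0.34 (SE 0.16, adjusted p = 0.00637) in Pax5-KO over WT and 0.10 (SE 0.16, adjusted p = 0.0455) in Ebf1-KO over WT. The call in Ebf1-KO over WT was lost with TMM scaling, quantile scaling, edgeR, DESeq2, no filter on low values and the replicate block on TMM scaling (adjusted p = 0.0631 to 0.400), and without Ebf1-KO 1, Ebf1-KO 3, Pax5-KO 2, WT 1 or WT 2 (adjusted p = 0.0653 to 0.195).

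Noc4l, the partner of Nop14 in 40S assembly as known from yeast, had normalised reads of 204, 229 and 279 in Ebf1-KO, then 267, 292 and 473 in Pax5-KO and 188, 226 and 244 in WT. Pax5-KO exceeded WT in every library, by the widest margin in library 3. The relative log2 change was 0.33 (SE 0.20, adjusted p = 0.0242) in Pax5-KO over WT, lost with quantile scaling and a fit to the 2 genotypes alone (adjusted p = 0.0568 and 0.0552), and without Pax5-KO 3, WT 1 or WT 2 (adjusted p = 0.106, 0.0998 and 0.0519). For Ebf1-KO over Pax5-KO it was -0.55 (SE 0.20, adjusted p = 0.0804), called lower with the block (adjusted p = 0.00151).

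Tsr1, a late 40S maturation factor with an E-box in its promoter window, had normalised reads of 610.0, 688 and 859 in Ebf1-KO, then 854, 843 and 983 in Pax5-KO and 449.8, 679.8 and 801 in WT. Its lowest Pax5-KO library lay just above the highest WT library. On the relative log2 scale the change was 0.23 (SE 0.19, adjusted p = 0.0419) in Pax5-KO over WT, lost with TMM scaling, quantile scaling, edgeR, DESeq2, no filter on low values, a fit to the 2 genotypes alone and the replicate block on TMM scaling (adjusted p = 0.0532 to 0.190), and without Ebf1-KO 2, Pax5-KO 2, Pax5-KO 3, WT 1 or WT 2 (adjusted p = 0.0586 to 0.199). With the block Tsr1 was called lower in Ebf1-KO over Pax5-KO (adjusted p = 0.0244).

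Heatr1 and Utp20 belong to the small subunit processome, the large particle that forms on the rRNA precursor. Heatr1 had normalised reads of 1387, 1277 and 1539 in Ebf1-KO, then 1813, 1883 and 2097 in Pax5-KO and 1145, 1630.5 and 1758 in WT. Utp20 had normalised reads of 947, 914 and 1169.8 in Ebf1-KO, then 1269, 1255 and 1534 in Pax5-KO and 963, 1102 and 1167 in WT. For both, all 3 Pax5-KO libraries exceeded the 6 others, and Ebf1-KO overlapped WT. The relative log2 change of Heatr1 in Ebf1-KO over Pax5-KO was -0.51 (SE 0.16, adjusted p = 0.0387), lost with no filter on low values (adjusted p = 0.0591), and without Ebf1-KO 1, Ebf1-KO 2, Pax5-KO 2, Pax5-KO 3 or WT 2 (adjusted p = 0.102, 0.149, 0.0895, 0.0903 and 0.0555). That of Utp20 was -0.47 (SE 0.14, adjusted p = 0.0350), lost without Ebf1-KO 1, Ebf1-KO 2, Pax5-KO 2, Pax5-KO 3 or WT 2 (adjusted p = 0.125, 0.148, 0.0574, 0.102 and 0.0583). In Pax5-KO over WT Heatr1 was at 0.10 and Utp20 at 0.05, both called higher with the block (adjusted p = 0.00588 and 0.00421) and neither with the block on TMM scaling (adjusted p = 0.231 and 0.355). In Ebf1-KO over WT they were at -0.40 and -0.40, both called lower with TMM scaling (adjusted p = 0.00188 and 0.000451).

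Of the 11 large subunit members 4 rose in Pax5-KO over WT (34.7% of all tested genes). With the authors' scaling, all libraries and no block, none was called in Ebf1-KO over WT or over Pax5-KO. With TMM scaling 2 rose in Pax5-KO over WT (27%). In Ebf1-KO over WT none rose and 5 fell with TMM scaling (30.9 and 26.8%), and 9 fell in Ebf1-KO over Pax5-KO (19.5%). With the block 9 rose in Pax5-KO over WT (47.6%). In Ebf1-KO over WT 2 rose and 1 fell with the block (51.0 and 17.4%), and 9 fell in Ebf1-KO over Pax5-KO (19%). Rrp1b (chr17:32036162-32062862, plus strand), a nucleolar factor of 60S assembly, had normalised reads of 713, 694 and 949 in Ebf1-KO, then 1013, 1044 and 1293 in Pax5-KO and 401, 654 and 716 in WT. The Pax5-KO libraries lay above all others, and Ebf1-KO overlapped WT. After Myc it had the largest relative log2 change of the members in Pax5-KO over WT, 0.67 (SE 0.20, adjusted p = 0.00128). Between the knockouts, Ebf1-KO over Pax5-KO, it was -0.56 (SE 0.20, adjusted p = 0.0692), and with the block it was called there (lower, adjusted p = 0.00152) and in Ebf1-KO over WT (higher, adjusted p = 0.00307). The call in Ebf1-KO over WT was lost with the block on TMM scaling (adjusted p = 0.261).

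Pes1, Bop1 and Wdr12 form the PeBoW complex, which processes the rRNA of the large subunit. Wdr12 had normalised reads of 563, 587 and 674 in Ebf1-KO, then 723, 779 and 839 in Pax5-KO and 407, 541 and 601 in WT, with Pax5-KO above every other library. Bop1 had normalised reads of 185, 199 and 276 in Ebf1-KO, then 228, 255 and 435 in Pax5-KO and 165, 199 and 228 in WT, with Pax5-KO above WT by a narrow margin. Pes1 had normalised reads of 319.8, 290.2 and 389.7 in Ebf1-KO, then 399, 355 and 498 in Pax5-KO and 295, 311 and 392 in WT, with overlap between all genotypes. For Pax5-KO over WT the relative log2 change was 0.33 (SE 0.15, adjusted p = 0.00464) for Wdr12 and 0.31 (SE 0.23, adjusted p = 0.0471) for Bop1. For Pes1 it was 0.04 (SE 0.17, adjusted p = 0.130), called higher with the block (adjusted p = 0.00669) and not with the block on TMM scaling (adjusted p = 0.397). The call of Bop1 was lost with TMM scaling, quantile scaling, edgeR, DESeq2, no filter on low values and a fit to the 2 genotypes alone (adjusted p = 0.0735 to 0.153), and without Ebf1-KO 1, Ebf1-KO 2, Pax5-KO 2, Pax5-KO 3, WT 1 or WT 2 (adjusted p = 0.0532 to 0.222). In Ebf1-KO over Pax5-KO the 3 relative log2 changes were -0.41, -0.48 and -0.37, all called lower with the block (adjusted p = 0.00493, 0.00462 and 0.0102). For Ebf1-KO over WT Wdr12 was called higher with the block (adjusted p = 0.0287) at a relative log2 change of -0.06, and not with the block on TMM scaling (adjusted p = 0.530).

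Nop2 methylates the rRNA of the large subunit and carries an E-box in its promoter window. It had normalised reads of 341, 360.2 and 446 in Ebf1-KO, then 445, 454 and 576 in Pax5-KO and 306, 412 and 437 in WT, with Pax5-KO above WT in every library. Its relative log2 change was 0.08 (SE 0.17, adjusted p = 0.0947) in Pax5-KO over WT, not called, -0.31 in Ebf1-KO over WT and -0.41 in Ebf1-KO over Pax5-KO. With the block it was called higher in Pax5-KO over WT (adjusted p = 0.00440) and lower in Ebf1-KO over Pax5-KO (adjusted p = 0.00600), and the block on TMM scaling lost the call in Pax5-KO over WT (adjusted p = 0.238). Nop16, a 60S factor known from yeast, had normalised reads of 135, 170.0 and 206 in Ebf1-KO, then 191, 200.9 and 264 in Pax5-KO and 97.0, 176 and 162 in WT, and again Pax5-KO exceeded WT. Its relative log2 change in Pax5-KO over WT was 0.34 (SE 0.23, adjusted p = 0.0361), lost with TMM scaling, quantile scaling, edgeR, DESeq2, no filter on low values and a fit to the 2 genotypes alone (adjusted p = 0.0604 to 0.171), and without Ebf1-KO 2, Pax5-KO 2, Pax5-KO 3 or WT 1 (adjusted p = 0.0514 to 0.185). For Ebf1-KO over Pax5-KO it was called lower with the block (adjusted p = 0.0314).

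The other 14 members (Nop58, Rrp9, Wdr43, Mybbp1a, Ddx21, Rrs1, Nip7, Ebna1bp2, Wdr75, Noc2l, Noc3l, Gar1, Nhp2 and Dcaf13) were called in no comparison with the authors' scaling and no block. In Ebf1-KO over WT their relative log2 changes ran from -0.54 (Rrs1) to 0.16 (Rrp9). In Pax5-KO over WT the range was -0.15 (Noc2l) to 0.23 (Nhp2), and in Ebf1-KO over Pax5-KO it was -0.59 (Nhp2) to -0.08 (Rrp9). With TMM scaling 8 of them were lower in Ebf1-KO over WT (26.8% of all tested genes) and 11 in Ebf1-KO over Pax5-KO (19.5%). None was called in Pax5-KO over WT with TMM scaling, where 27% of all tested genes were higher and 23.0% lower. With the block, Ddx21 and Rrp9 were called higher and Rrs1 lower in Ebf1-KO over WT (adjusted p = 0.00495, 0.0219 and 0.0343), and with the block on TMM scaling Ddx21 and Rrp9 were not called (adjusted p = 0.556 and 0.381). For Pax5-KO over WT the block added Mybbp1a, Ddx21, Rrp9, Wdr43, Nip7, Ebna1bp2, Noc3l and Nhp2, all higher (adjusted p = 0.000268 to 0.0218). Of these Ddx21, Rrp9, Wdr43, Ebna1bp2 and Noc3l were not called with the block on TMM scaling (adjusted p = 0.0785 to 0.853). Between the knockouts, Ebf1-KO over Pax5-KO, the block added Wdr75, Dcaf13, Rrs1, Nip7, Noc3l, Gar1 and Nhp2, all lower (adjusted p = 0.000210 to 0.0465). With the block 51.0% of all tested genes were higher and 17.4% lower in Ebf1-KO over WT. In Pax5-KO over WT 47.6% were higher, and in Ebf1-KO over Pax5-KO 19% were lower. No member was listed among the 2488 genes higher and 1986 lower in Ebf1-KO, or the 1949 higher and 1529 lower in Pax5-KO, of the authors' deposited table of changed genes, whose listed changes all exceed 1.00 on the log2 scale.

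Of 11 tested genes of the MYC network, which share partners with MYC or oppose it, 6 rose and 1 fell in Ebf1-KO over WT. In Pax5-KO over WT 4 rose and 1 fell, and 4 rose in Ebf1-KO over Pax5-KO. Of all tested genes 40.8% were called higher and 14.4% lower in Ebf1-KO over WT. The shares were 34.7 and 11.9% in Pax5-KO over WT and 17.5 and 13.3% in Ebf1-KO over Pax5-KO. Mycn, a close relative of Myc, averaged 1526 ± 263 in Ebf1-KO, 214 ± 59.7 in Pax5-KO and 229 ± 29.95 in WT in normalised reads (SD, n = 3 each). It rose in Ebf1-KO over WT (2.41, adjusted p = 1.59e-08) and over Pax5-KO (2.81, adjusted p = 1.80e-08) on the relative log2 scale. Mycl, also of this family, averaged 34.1 ± 7.44 in Ebf1-KO, 2.60 ± 1.65 in Pax5-KO and 0.979 ± 0.238 in WT, with calls in both knockouts over WT (adjusted p = 1.23e-08 and 0.0453). The call of Mycl in Pax5-KO was lost with TMM scaling. Mxd1, which pairs with MAX and opposes MYC, averaged 459.7 ± 399 in Ebf1-KO, 128 ± 36.4 in Pax5-KO and 60.9 ± 6.15 in WT, with an SD in Ebf1-KO near the size of its mean. It rose in Ebf1-KO (2.26, adjusted p = 5.25e-05) and Pax5-KO (0.75, adjusted p = 0.0445) over WT, the last not with TMM scaling. Mxd4, of the same family, rose in Ebf1-KO (1.30, adjusted p = 1.87e-06) and Pax5-KO (1.14, adjusted p = 1.04e-05) over WT. Mxi1 fell in Pax5-KO over WT (-0.68, adjusted p = 0.0300) and rose in Ebf1-KO over Pax5-KO (1.13, adjusted p = 6.42e-06). With TMM scaling the counts were 6 higher and 3 lower in Ebf1-KO over WT (30.9 and 26.8% of all tested genes). They were 2 and 5 in Pax5-KO over WT (27 and 23.0%) and 4 and 1 in Ebf1-KO over Pax5-KO (20.7 and 19.5%).

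Other genes of ribosome production were counted to set the members in context. Of all tested genes 40.8% were called higher and 14.4% lower in Ebf1-KO over WT. The shares were 34.7 and 11.9% in Pax5-KO over WT and 17.5 and 13.3% in Ebf1-KO over Pax5-KO. Of 17 tested genes of the remaining polymerase I machinery 3 rose and 2 fell in Ebf1-KO over WT and 5 rose and 1 fell in Pax5-KO over WT, with medians of -0.05 and -0.05 on the relative log2 scale. Znrd1, a small polymerase I subunit, fell in Ebf1-KO (-1.19, adjusted p = 0.00208), and Taf1b, of the promoter-binding complex, fell in Ebf1-KO (-0.90, adjusted p = 0.02001) and Pax5-KO (-0.90, adjusted p = 0.0187) over WT. Of 40 other small subunit factors 8 rose and 1 fell in Ebf1-KO over WT, 13 rose and 1 fell in Pax5-KO over WT and 4 fell in Ebf1-KO over Pax5-KO, with medians of -0.18, 0.09 and -0.26. The single gene that fell in both knockouts was Bysl (bystin, a 40S assembly factor), which averaged 313 ± 70.4 in Ebf1-KO, 339 ± 99.99 in Pax5-KO and 712 ± 139 in WT (adjusted p = 0.000246 in Ebf1-KO and 0.000729 in Pax5-KO over WT). Of 43 other large subunit factors 9 rose in Ebf1-KO over WT, 17 rose and 1 fell in Pax5-KO over WT, and 2 rose and 4 fell in Ebf1-KO over Pax5-KO, with medians of -0.10, 0.09 and -0.16. Urb1, a 60S factor known from yeast, rose in Ebf1-KO over WT (0.83, adjusted p = 0.000170) and over Pax5-KO (0.90, adjusted p = 0.00136). Of 12 other snoRNP factors 2 rose in Ebf1-KO over WT, 3 rose in Pax5-KO over WT and 1 fell in Ebf1-KO over Pax5-KO, with medians of -0.09, 0.03 and -0.25.

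The direction in Ebf1-KO over WT depended on the scaling for these lists. With TMM scaling the polymerase I machinery had 1 higher and 5 lower, the small subunit factors 3 and 14, the large subunit factors 5 and 11 and the snoRNP factors none and 4. In Pax5-KO over WT the same lists had 2 higher and 2 lower, 8 and 1, 10 and 4, and 2 and none. In Ebf1-KO over Pax5-KO they had none higher and 3 lower, none and 18, 3 and 14, and none and 3. With TMM scaling the shares of all tested genes were 30.9% higher and 26.8% lower in Ebf1-KO over WT. They were 27 and 23.0% in Pax5-KO over WT and 20.7 and 19.5% in Ebf1-KO over Pax5-KO.

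In the polyamine pathway, which Odc1 opens, 6 of 17 tested genes rose and 1 fell in Ebf1-KO over WT, 8 rose in Pax5-KO over WT and 4 rose in Ebf1-KO over Pax5-KO. With the authors' scaling the shares of all tested genes were 40.8% higher and 14.4% lower in Ebf1-KO over WT. They were 34.7 and 11.9% in Pax5-KO over WT and 17.5 and 13.3% in Ebf1-KO over Pax5-KO. With TMM scaling the counts were 5 higher and 2 lower, 6 and 2, and 4 and 2, in the same order. The shares of all tested genes were then 30.9 and 26.8%, 27 and 23.0%, and 20.7 and 19.5%. Smox, the spermine oxidase that breaks spermine down, averaged normalised reads of 119.8 ± 22.1 in Ebf1-KO, 7.92 ± 1.08 in Pax5-KO and 0.369 ± 0.0991 in WT (SD, n = 3 each). Azin2, an antizyme inhibitor, averaged 13.97 ± 1.73 in Ebf1-KO, 2.48 ± 0.423 in Pax5-KO and 0.211 ± 0.186 in WT. Paox, which oxidises acetylated polyamines, averaged 115 ± 6.63 in Ebf1-KO, 43.4 ± 6.92 in Pax5-KO and 28.0 ± 5.62 in WT. All 3 were called higher in Ebf1-KO over WT (adjusted p = 1.74e-12, 3.94e-09 and 3.38e-07), in Pax5-KO over WT (adjusted p = 7.15e-08, 9.08e-05 and 0.0170) and in Ebf1-KO over Pax5-KO (adjusted p = 2.10e-09, 3.78e-06 and 3.27e-05), though Paox in Pax5-KO over WT was lost with TMM scaling. Among synthetic enzymes Srm rose in Pax5-KO over WT (0.59, adjusted p = 0.0237), and so did Amd1 (0.55, adjusted p = 0.00346), whose reads cannot be told from those of the near-identical Amd2. Arg1, the arginase that supplies ornithine, fell in Ebf1-KO over WT (-1.11, adjusted p = 0.0139).

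Of 27 other known MYC targets 3 rose and 3 fell in Ebf1-KO over WT, 9 rose and 2 fell in Pax5-KO over WT, and 1 rose and 2 fell in Ebf1-KO over Pax5-KO. With the authors' scaling the shares of all tested genes were 40.8% higher and 14.4% lower in Ebf1-KO over WT. They were 34.7 and 11.9% in Pax5-KO over WT and 17.5 and 13.3% in Ebf1-KO over Pax5-KO. With TMM scaling the counts were 2 higher and 6 lower, 6 and 6, and 2 and 7, in the same order. The shares of all tested genes were then 30.9 and 26.8%, 27 and 23.0%, and 20.7 and 19.5%. Ldha, the lactate dehydrogenase of glycolysis, fell in Ebf1-KO (-0.95, adjusted p = 0.0139) and Pax5-KO (-0.82, adjusted p = 0.0390) over WT on the relative log2 scale. Prdx4, a peroxiredoxin of the secretory pathway, averaged 39.3 ± 3.33 in Ebf1-KO, 158 ± 45.1 in Pax5-KO and 200.4 ± 11.3 in WT and fell in Ebf1-KO over WT (adjusted p = 4.73e-08) and over Pax5-KO (adjusted p = 6.68e-07). Tfrc, the transferrin receptor, rose in Ebf1-KO (0.58, adjusted p = 0.000160) and Pax5-KO (0.55, adjusted p = 0.000414) over WT.

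Markers of division and of other lineages moved with the genotypes as well, and their part in the members' levels was not tested. Of 12 proliferation genes none rose and 3 fell in Ebf1-KO over WT and in Pax5-KO over WT (with TMM scaling 10 and 8 fell), and their summed level was 32672 to 43337 normalised reads in Ebf1-KO, 30414 to 40448 in Pax5-KO and 48222 to 56907 in WT. Mki67, the marker of cycling cells, fell in Ebf1-KO (-1.10, adjusted p = 0.000747) and Pax5-KO (-1.15, adjusted p = 0.000494) over WT. It held a large part of the summed level, at 11672 to 15902 in Ebf1-KO, 11848 to 14947 in Pax5-KO and 23661 to 25460 in WT. Aurka stood at 285 to 395 in Ebf1-KO, 209 to 296 in Pax5-KO and 237 to 270 in WT. With the block 2 of the 12 rose and 5 fell in Ebf1-KO over WT (51.0 and 17.4% of all tested genes). None rose and 4 fell with the block in Pax5-KO over WT (47.6 and 15.3%). The 14 B lineage markers summed to 9935 to 10312 in Ebf1-KO, 26261 to 36737 in Pax5-KO and 57582 to 66546 in WT, with 11 called lower and 1 higher in each knockout over WT. The 10 myeloid markers summed to 2468 to 3089 in Ebf1-KO, 1341 to 2419 in Pax5-KO and 10.6 to 21.9 in WT, with 7 of 9 tested called higher in each knockout over WT and 1 lower in Ebf1-KO. Among them Elane was at or near 0 in all libraries, and Fcer1g and Tyrobp led the sum in both knockouts. The 11 T and NK lineage markers summed to 1335 to 1417 in Ebf1-KO, 74.9 to 139.97 in Pax5-KO and 10.9 to 14.6 in WT, with 8 and 5 of 8 tested called higher, while Cd3e was at most 1.55 in Ebf1-KO and 0 in all Pax5-KO libraries. The 11 stroma markers summed to 413 to 489.5 in Ebf1-KO, 105 to 258 in Pax5-KO and 167 to 350.5 in WT. Of the 9 tested, 1 was called higher and 1 lower in each knockout over WT. Pdgfrb stood at 335 to 448 in Ebf1-KO, 23.1 to 29.9 in Pax5-KO and at most 1.41 in WT, and Col3a1 reached at most 1.27 in any library. The 7 erythroid markers summed to at most 51.7 in any library, with Hba-a1 at 0 in all, and of 3 tested 2 were called higher and 1 lower in Ebf1-KO over WT and none in Pax5-KO over WT.

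Chromatin was measured by ATAC-seq, in which a transposase cuts open DNA, as tags per 10 M in each of 14377 peaks bound by EBF1, by PAX5 or by both in re-analysed ChIP data. Mapped reads were 15.3 to 38.6 M per ATAC library, of which 0.825 to 2.31% lay in these peaks, with 1.52 to 2.31% in WT against 0.825 to 1.11% in the knockouts. By the authors' assignment to the nearest start site, 12 peaks lay at 11 members, 8 bound by EBF1 only, 3 by PAX5 only and 1 by both. The 11 members are 28.9% of 38, against 43.9% of all tested genes with such a peak. The median log2 change of all 14365 tested peaks was -0.78 in Ebf1-KO over WT and -0.75 in Pax5-KO over WT, and -0.10 and 0.03 with TMM scaling.

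The 4 peaks below are shown because they held the called differences in Ebf1-KO over Pax5-KO, an EBF1 palindrome, or lie at Myc. Sequences are the plus strand of RefSeq's GRCm38.p6, and capitals mark the EBF1 palindrome where it occurs.
Noc3l, EBF1 only, chr19:38744592-38744862: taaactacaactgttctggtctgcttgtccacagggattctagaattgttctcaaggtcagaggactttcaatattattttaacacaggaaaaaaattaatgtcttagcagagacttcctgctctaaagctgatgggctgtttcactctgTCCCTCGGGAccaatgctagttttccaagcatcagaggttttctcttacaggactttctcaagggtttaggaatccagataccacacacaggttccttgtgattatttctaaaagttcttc
Polr1a, EBF1 only, chr6:71934058-71934328: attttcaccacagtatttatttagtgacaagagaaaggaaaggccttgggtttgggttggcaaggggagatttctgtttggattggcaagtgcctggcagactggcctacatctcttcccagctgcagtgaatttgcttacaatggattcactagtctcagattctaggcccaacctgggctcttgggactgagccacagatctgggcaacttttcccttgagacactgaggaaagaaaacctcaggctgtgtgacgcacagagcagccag
Heatr1, PAX5 only, chr13:12412138-12412386: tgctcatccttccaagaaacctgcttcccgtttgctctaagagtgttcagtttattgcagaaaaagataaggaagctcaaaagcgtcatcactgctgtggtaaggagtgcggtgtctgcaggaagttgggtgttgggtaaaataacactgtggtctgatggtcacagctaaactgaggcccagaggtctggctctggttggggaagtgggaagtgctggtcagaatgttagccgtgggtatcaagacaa
Myc, EBF1 only, chr15:61983680-61983950: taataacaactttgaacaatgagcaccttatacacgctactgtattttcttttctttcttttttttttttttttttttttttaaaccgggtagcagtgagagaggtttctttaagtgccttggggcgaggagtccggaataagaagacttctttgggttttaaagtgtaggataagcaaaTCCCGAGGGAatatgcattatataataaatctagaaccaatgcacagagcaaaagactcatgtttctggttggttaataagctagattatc
The palindrome, which reads the same on both strands, occurred in 27.2% of the 7810 EBF1-only peaks with sequence, in 0.775% of PAX5-only peaks and in 14.1% of peaks bound by both. Of the 12 member peaks it was in those of Noc3l and Myc. The Noc3l peak lies in an intron of a neighbouring gene, 74510 bases from the Noc3l start site, and those of Polr1a and Heatr1 lie in introns of these genes, 25140 and 16887 bases past the start. The Myc peak is intergenic, 1526 bases before the start.

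For Ebf1-KO over WT 4 of the 12 peaks fell and 1 rose, against 51.1% of all tested peaks called lower and 3.28% called higher. For Pax5-KO over WT 3 fell and none rose, against 51.5 and 2.11%. For Ebf1-KO over Pax5-KO 1 fell and 1 rose, against 12.6 and 9.06%. With TMM scaling the counts were 4 lower and 4 higher in Ebf1-KO over WT (29.7 and 20.4% of all peaks), 2 and 3 in Pax5-KO over WT (21.3 and 13.8%) and 1 and 1 in Ebf1-KO over Pax5-KO (15.5 and 12.9%). None of the 6 member peaks within 1000 bases of a start site was called in any comparison with the authors' scaling.

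The Polr1a peak differed most between the knockouts. Its tags were 2.34, 1.82 and 2.24 in Ebf1-KO, then 13.1, 8.75 and 14.8 in Pax5-KO and 18.9, 12.8 and 17.1 in WT. The 3 Ebf1-KO libraries lay far below all others, and Pax5-KO overlapped WT. The log2 change of its signal was -2.45 (SE 0.29, adjusted p = 4.53e-12) in Ebf1-KO over WT, -0.40 (SE 0.29, adjusted p = 0.242) in Pax5-KO over WT and -2.05 (SE 0.29, adjusted p = 1.72e-08) in Ebf1-KO over Pax5-KO. Less the median of all peaks these were -1.67, 0.34 and -2.03, so the sign in Pax5-KO over WT turned. Polr1a RNA rose in Pax5-KO over WT. In Ebf1-KO it was not called with the authors' scaling, all libraries and no block (adjusted p = 0.0646 over WT and 0.264 over Pax5-KO). Without Pax5-KO 3 or WT 3 it was called higher over WT (adjusted p = 0.0461 and 0.0259). With the block it was called higher over WT (adjusted p = 0.00277), and over Pax5-KO it was called lower with the block and with TMM scaling (adjusted p = 0.0374 and 0.00837).

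The Heatr1 peak moved the other way. It had tags of 27.6, 26.9 and 33.0 in Ebf1-KO, then 20.1, 16.7 and 13.9 in Pax5-KO and 18.9, 16.8 and 13.2 in WT. All Ebf1-KO libraries exceeded the other 6, and Pax5-KO overlapped WT. The log2 change was 0.81 (SE 0.26, adjusted p = 0.00575) in Ebf1-KO over WT and 0.76 (SE 0.26, adjusted p = 0.0246) in Ebf1-KO over Pax5-KO (less the median of all peaks 1.59 and 0.79), while Heatr1 RNA fell in Ebf1-KO over Pax5-KO. No member peak was called higher in Ebf1-KO over WT without WT 3, nor in Ebf1-KO over Pax5-KO without Ebf1-KO 2, Ebf1-KO 3, Pax5-KO 2 or Pax5-KO 3. In Pax5-KO over WT the log2 change was 0.05 (SE 0.26, adjusted p = 0.893), or 0.79 less the median, and with TMM scaling it was called higher there too (0.93, adjusted p = 0.000169).

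The Noc3l peak had tags of 0, 0.300 and 0.320 in Ebf1-KO, then 0.710, 0.270 and 0.430 in Pax5-KO and 8.49, 3.42 and 6.47 in WT. Both knockouts were near 0 and every WT library was above them. Its log2 change was -2.50 (SE 0.39, adjusted p = 3.05e-08) in Ebf1-KO over WT and -2.22 (SE 0.39, adjusted p = 8.88e-07) in Pax5-KO over WT, or -1.72 and -1.47 less the median of all peaks. The intron peak of Rrp1b, bound by PAX5 only, had tags of 2.73, 1.51 and 1.92 in Ebf1-KO, then 1.06, 2.12 and 4.78 in Pax5-KO and 13.1, 5.98 and 8.29 in WT. WT lay above both knockouts, with log2 changes of -1.69 (SE 0.36, adjusted p = 3.39e-05) in Ebf1-KO over WT and -1.54 (SE 0.36, adjusted p = 0.000180) in Pax5-KO over WT, the last lost with TMM scaling (adjusted p = 0.102). Less the median of all peaks they were -0.91 and -0.79. The peak upstream of Wdr75, also bound by PAX5 only, had tags of 0, 0.300 and 0.640 in Ebf1-KO, then 0, 0.270 and 0.430 in Pax5-KO and 3.92, 1.99 and 2.07 in WT. Its log2 change was -1.47 (SE 0.39, adjusted p = 0.000842) in Ebf1-KO over WT, a call lost with edgeR (adjusted p = 0.0602), and -1.55 (SE 0.39, adjusted p = 0.000526) in Pax5-KO over WT. Less the median of all peaks these were -0.69 and -0.80. The RNA of Rrp1b rose in Pax5-KO over WT, and that of Noc3l and Wdr75 was called in no comparison with the authors' scaling and no block. With the block both fell in Ebf1-KO over Pax5-KO and Noc3l rose in Pax5-KO over WT, and with TMM scaling both fell in Ebf1-KO over WT and over Pax5-KO.

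The Myc peak was weak, with tags of 1.17, 1.21 and 1.92 in Ebf1-KO, then 3.17, 1.06 and 0.430 in Pax5-KO and 0.650, 2.85 and 4.14 in WT. The genotypes overlapped, and its log2 change was -0.41 (SE 0.40, adjusted p = 0.408) in Ebf1-KO over WT, -0.47 (SE 0.40, adjusted p = 0.331) in Pax5-KO over WT and 0.06 (SE 0.40, adjusted p = 0.940) in Ebf1-KO over Pax5-KO. Less the median of all peaks these were 0.37, 0.28 and 0.09, so the sign over WT turned once the median was taken off. The promoter peak of Pes1, bound by both factors, had tags of 10.1, 7.87 and 13.4 in Ebf1-KO, then 8.11, 8.75 and 9.56 in Pax5-KO and 12.4, 15.7 and 9.58 in WT, with overlap between the genotypes and no call with the authors' scaling. The promoter peaks of Fbl, Tsr1, Polr1e and Mybbp1a and the intron peak of Pes1 were not called either. With TMM scaling Mybbp1a, Fbl and the Pes1 promoter peak were called higher in Ebf1-KO over WT, and Mybbp1a and Tsr1 in Pax5-KO over WT.

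**Figure D5:**
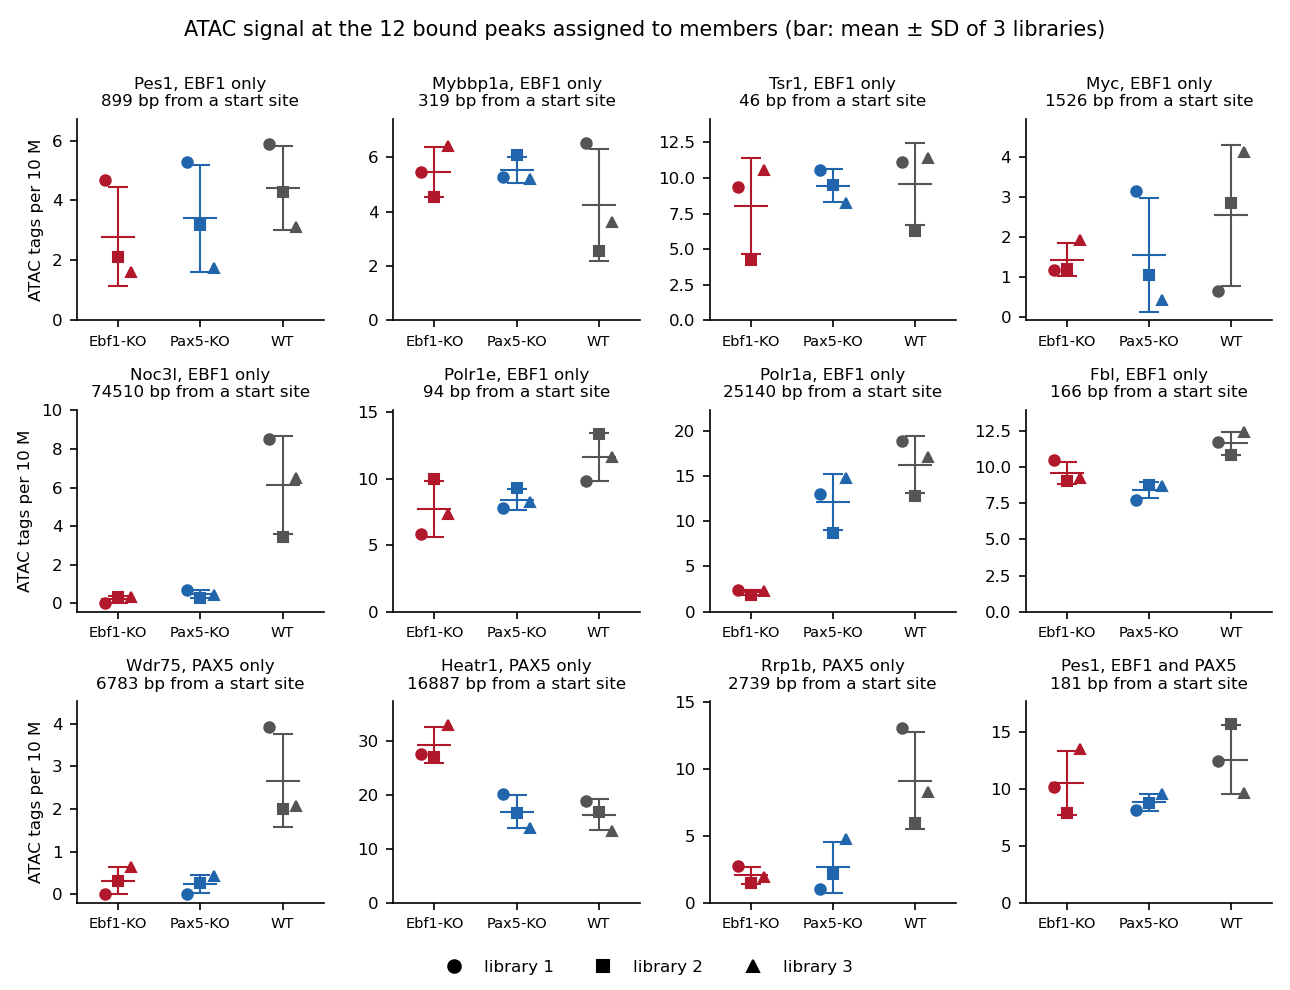
ATAC tags per 10 M in each of 9 libraries for the 12 peaks at members, with 1 point per library and bars at the genotype means. The Polr1a peak is at 1.82 to 2.34 in Ebf1-KO against 8.75 to 14.8 in Pax5-KO and 12.8 to 18.9 in WT, and the Heatr1 peak is at 26.9 to 33.0 in Ebf1-KO, above all other libraries.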

How the data were processed

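Reads over exons per gene were deposited by the authors as a signal scaled to 10 M mapped reads per library, made with HOMER on mm10 with 1 transcript kept per gene, per the file headers. TopHat, Bowtie2, HOMER, edgeR and DESeq2 are named, without versions, per the submitters' processing notes. ATAC signal per peak was deposited as tags per 10 M with mitochondrial tags left out, and each peak carries the authors' ChIP score, per the file headers. The log2 fold changes and adjusted p-values in the authors' deposited tables of changed genes were used only to look up the members.

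Changes were tested with limma 3.58.1 in R 4.3.3 on log2(value + 1), in 1 model over the 9 libraries of an assay, after a filter on low values (edgeR 4.0.16) for genes and a minimum of 10 tags over all libraries for peaks. The fold change of low genes is understated on this scale. Values came out as whole reads, within 0.1 of a read, so edgeR and DESeq2 1.42.0 were run on them as alternatives, beside TMM and quantile scaling, other pseudocounts, no filter, 2 genotypes alone, the replicate number as a block and each library left out. Code was tested on simulated data. Same-numbered RNA libraries deviated together (correlations 0.116 to 0.439, all 9 above 0.1, against -0.366 to 0.030 for different numbers), so the numbers were taken to pair RNA libraries. The main calls leave this pairing out, and the calls with the block take it in. Full values are given for Myc, Odc1, Ncl, Npm1, Fbl, Polr1a, Polr1b, Dkc1, Heatr1, Pes1, Bop1, Nop2 and every other called member, and up to 3 called genes per direction in pathway lists. Members and lists were chosen with earlier results of these data known. The ATAC histogram tables and further peak lists were not used here. Some marker genes are not reported here.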

Additional observations from a re-analysis of the deposited data

How the results depend on the processing

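Members called in Ebf1-KO over WT numbered 3 higher and 0 lower. With TMM, quantile, edgeR and DESeq2 none was higher and 16, 15, 16 and 17 were lower. No filter gave 1 higher, the replicate block 9 higher and 1 lower, and the block on TMM scaling 20 lower. Their median of -0.24 was -0.16 with quantile scaling and -0.12 with no filter. In Pax5-KO over WT the 14 higher became 9, 9 and 7 with quantile, edgeR and DESeq2, 8 with 2 genotypes alone and 30 with the block. In Ebf1-KO over Pax5-KO the 5 lower became 32, 32, 30 and 31 with TMM, quantile, edgeR and DESeq2, 3 with no filter, 25 with the block and 34 with the block on TMM scaling. Leaving out 1 library gave 1 to 6 higher in Ebf1-KO over WT (median -0.33 to -0.16), 5 to 21 higher in Pax5-KO over WT (median 0.06 to 0.21) and 0 to 9 lower in Ebf1-KO over Pax5-KO (median -0.45 to -0.28).

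Peaks called higher in Ebf1-KO over WT numbered 4 with TMM scaling and 4 with edgeR, against 1, and 3 with each in Pax5-KO over WT, against 0. Within 1000 bases of the start 0 were called in either direction in the 3 comparisons with the authors' scaling. With TMM scaling the promoter peaks of Mybbp1a, Fbl and Pes1 were called higher in Ebf1-KO over WT, and those of Mybbp1a and Tsr1 in Pax5-KO over WT. Leaving out 1 library gave 0 to 1 higher in Ebf1-KO over WT and over Pax5-KO. The ATAC numbers did not pair the libraries (correlations -0.052 to 0.110, 1 of 9 above 0.1), and the block changed no count of called member peaks.

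Single-gene values were followed only for Myc, Odc1, Ncl, Npm1, Fbl, Polr1a, Polr1b, Dkc1, Heatr1, Pes1, Bop1 and Nop2, plus other members where called. Of all 38 members, 10 lay below the median of all genes in Pax5-KO over WT, but 4 with quantile scaling and 1 with no filter. In Ebf1-KO over WT 31 lay below it, but 29 with quantile scaling and 25 with no filter. Among the values followed, the relative log2 changes that turned sign were small. For Ebf1-KO over WT, leaving out 1 library put Polr1a at -0.0049 (without WT 1) to 0.0902. For Pax5-KO over WT, quantile scaling put Ncl at 0.18 and Fbl at 0.0683, and no filter put Ncl at 0.0392, Npm1 at 0.0324 and Fbl at 0.0799. Leaving out 1 library there put Fbl at -0.14 to 0.0468 (without Pax5-KO 1), Heatr1 at -0.0099 (without WT 1) to 0.15 and Pes1 at -0.013 (without Pax5-KO 1, and also below 0 without WT 2) to 0.12. For Ebf1-KO over Pax5-KO it put Odc1 at -0.13 to 0.0363 (without Pax5-KO 3). Of the other single-gene values 742 kept direction and side of the threshold, 104 passed it newly and 112 no longer passed. The cause of these shifts was not tested, and 3 libraries per genotype limit the precision.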
